A study of Homo sapiens with 6 samples.

Results

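KISS1 and its receptor gene KISS1R were each read by 1 probe among the 47231 probes of an Illumina bead array, in HeyA8-MDR cells. Both probes were taken by the gene symbol in the platform's annotation, so the pair makes up 2 of the 20046 genes named there by probes with 1 symbol. This human ovarian cancer line was derived from HeyA8 and resists several drugs. Cells of this 1 line received an siRNA against GRAMD1B, which encodes a sterol carrier of the endoplasmic reticulum (siGRAMD1B, 3 arrays, numbered 2, 3 and 4), or a control siRNA (siControl, 3 arrays, numbered 1, 2 and 4). The comparison asks how reducing GRAMD1B alters expression in these cells. The labels give neither a time nor a dose of siRNA, nor whether replicates were cultured separately, so the p-values measure only how these 6 arrays vary, and that variation may be technical. The pair was chosen by the measured KISS1 level, high with siGRAMD1B against siControl on these same arrays. The values of both genes are therefore a description with no test.

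KISS1 encodes a secreted precursor that is cut at basic residues and amidated at its C-terminus to give the kisspeptins. Kisspeptins bind KISS1R, a receptor of the cell surface also called GPR54, which couples to Gq and G11 and through phospholipase C to calcium release, protein kinase C and ERK. The gene was first described as a suppressor of metastasis in melanoma cells. It is strongly expressed in the placental trophoblast and in hypothalamic neurons, where it drives the release of gonadotropin-releasing hormone, and it has been studied in ovarian carcinoma.

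KISS1 was bright in all 3 siGRAMD1B arrays and close to the array's background in the siControl arrays. The deposited intensity of its probe (ILMN_1669404) was 549.6, 511 and 472 in siGRAMD1B replicates 2, 3 and 4. In siControl replicates 1, 2 and 4 it was 135, 129 and 171. The groups did not overlap, and the lowest siGRAMD1B value lay far above the highest siControl value. Medians of the same arrays, over all probes, were 123, 129 and 109.9 in siGRAMD1B and 103, 120.3 and 119.7 in siControl. The KISS1 signal was thus 4.48, 3.96 and 4.29 times the array median with siGRAMD1B, and 1.31, 1.08 and 1.43 times the median with siControl. In rank, KISS1 lay above 86.1%, 84.5% and 86.2% of the probes on the siGRAMD1B arrays and above 69.7%, 60.2% and 70.8% on the siControl arrays. The lowest siControl signal, in replicate 2, was the one nearest to the median of its array. Since this is bulk RNA, more cells with KISS1 transcripts and more transcripts per cell cannot be told apart.

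**Figure D1:**
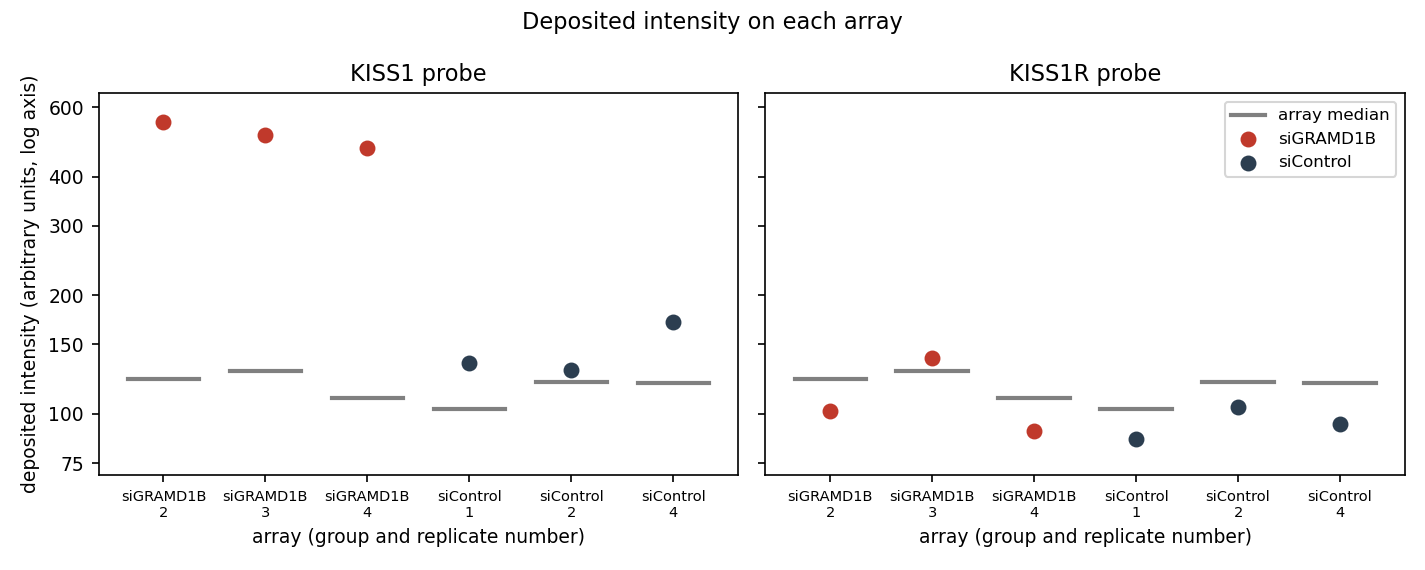
Deposited intensity (log axis, arbitrary units) of the KISS1 probe (left) and the KISS1R probe (right) on each of the 6 arrays, with a grey bar at the median of all probes on that array. KISS1 lay between 472 and 549.6 in siGRAMD1B and between 129 and 171 in siControl, while KISS1R lay below the array median on 5 of 6 arrays.

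After background correction (normexp with an offset of 50) and quantile normalization, KISS1 had log2 values of 8.95, 8.68 and 8.97 in siGRAMD1B, against 6.86, 6.43 and 6.94 in siControl. The group means were 8.87 ± 0.16 in siGRAMD1B and 6.74 ± 0.28 in siControl (SD, n = 3 each). The lowest siGRAMD1B array exceeded the highest siControl array by 1.74 on the log2 scale. The difference of the means was 2.13, a 4.36-fold higher level with siGRAMD1B on this scale. Of the 28338 probes tested across the array, 24.1% had groups that did not overlap, and 12.3% did so with siGRAMD1B higher, and nothing is read from KISS1 being among them. KISS1 passed the filter on low values, a mean log2 value above 6.16, and its siControl mean alone was above that limit.

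The size of the KISS1 difference depended on how much of the siControl signal was taken as background. The ratio of the mean deposited intensities was 3.52, with 511 ± 38.9 in siGRAMD1B and 145 ± 22.4 in siControl (SD, n = 3 each). When the 25th percentile of each array was subtracted, 400.03 ± 33.7 units were left in siGRAMD1B and 40.5 ± 21.2 in siControl, a ratio of 9.89. Subtracting the 5th percentile gave 8.42, and subtracting the median gave 12.7. A normexp correction with no offset gave 7.25. With the 25th percentile removed, the ratio of single arrays ran from 6.04, for the lowest siGRAMD1B against the highest siControl array, to 22.9 for the opposite extremes. The siControl remainder, 19.1 units in replicate 2 and 61.3 units in replicate 4, ranged more widely relative to its mean than the siGRAMD1B remainder, though less in units. The table holds no detection p-values, so the siControl signal could not be called present or absent.

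KISS1 was higher with siGRAMD1B under all 11 alternatives computed for it. The choice of KISS1 by this difference on the same arrays largely fixed that direction, so only the size is described. Its log2 difference ran from 1.72 with the authors' normalized values to 2.58 with a normexp offset of 16. Leaving out 1 array at a time gave 1.97, without siControl replicate 2, to 2.20, without siControl replicate 4. In the authors' normalized table, KISS1 stood at 8.96, 8.71 and 8.98 in siGRAMD1B and at 7.23, 6.96 and 7.29 in siControl, on a log2 scale.

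**Figure D2:**
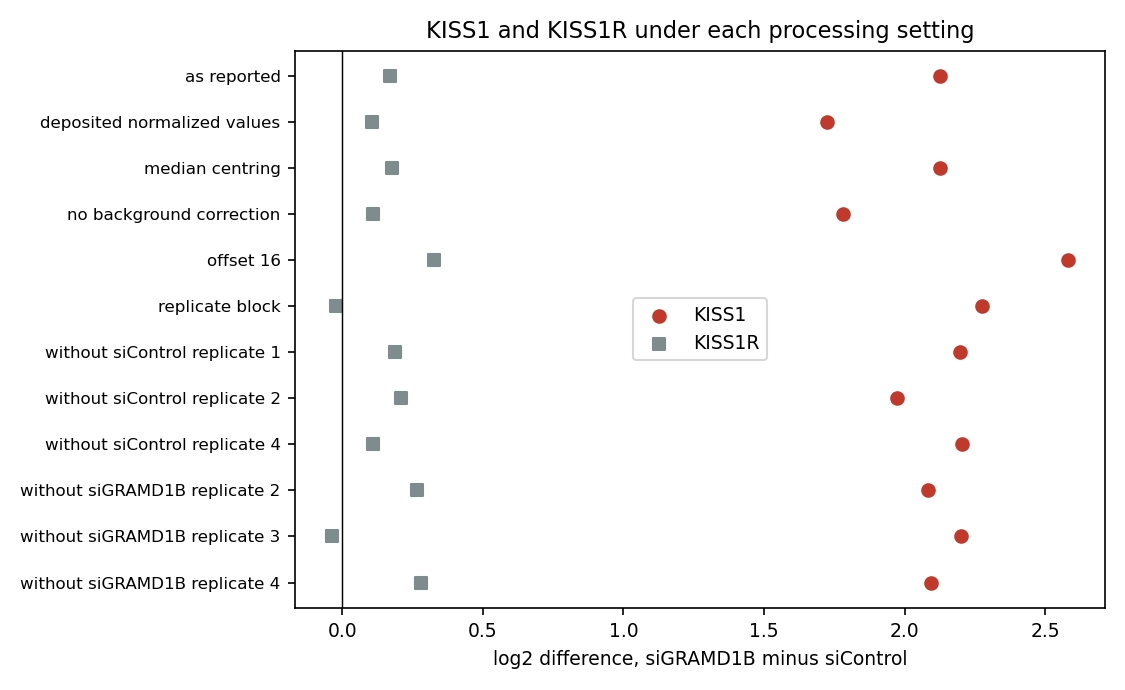
Log2 difference (siGRAMD1B minus siControl, horizontal axis) of KISS1 (circles) and KISS1R (squares) in the reported setting and under each alternative. KISS1 ran from 1.72 to 2.58 and KISS1R from -0.04 to 0.33. The KISS1R value was below 0 where siGRAMD1B replicate 3 was left out or the replicate number was a block. That block rests on replicates 2 and 4 alone, so it too leaves out siGRAMD1B replicate 3.

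The reference sequence upstream of KISS1 is shown because it is the start of the gene with the difference described above. The gene lies on the minus strand of chromosome 1, and RefSeq gives the window chr1:204196442-204196741 (GRCh38.p14, minus strand), with 250 bases before the gene's start and 50 after it. Capitals mark, in order, a GC box, a cAMP response element core and a TATA box, whose letters are spelled out after the sequence.

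KISS1 promoter: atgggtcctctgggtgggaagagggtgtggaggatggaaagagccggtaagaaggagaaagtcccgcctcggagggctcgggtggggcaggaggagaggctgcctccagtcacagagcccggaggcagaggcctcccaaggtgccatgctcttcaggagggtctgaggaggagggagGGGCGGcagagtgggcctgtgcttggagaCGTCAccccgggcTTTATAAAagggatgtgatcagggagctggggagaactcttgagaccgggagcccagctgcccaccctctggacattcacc

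The window held 63.3% G and C. A TATA box (TATAAA) began at -29, counted from the gene's start as 0, and a match on the other strand overlapped it from -31. A GC box (GGGCGG), the core bound by SP1, lay at -73 to -68, and a partial match to the cAMP response element, its core TGACG, lay on the other strand at -44 to -40. On either strand, the TATA box letters occurred in 11.5% of the 35116 RefSeq windows of this length, those of the GC box in 45.0% and those of the cAMP core in 24.6%. The AP-1 letters TGANTCA, found in 7.71% of all windows, were not in this one, and neither was the full cAMP response element TGACGTCA, found in 1.85%. A match is a description of the letters and no evidence of binding.

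KISS1R, by contrast, lay at the floor of the array in 5 of the 6 samples. The deposited intensity of its probe (ILMN_1673521) was 101, 139 and 90.3 in siGRAMD1B replicates 2, 3 and 4, against 86.4, 104 and 94.2 in siControl replicates 1, 2 and 4. SiGRAMD1B replicate 3 was the only array on which it exceeded the median of all probes, by 9.95 units. There it lay above 60.3% of the probes, against 2.09% and 1.57% on the other siGRAMD1B arrays and 4.67%, 8.26% and 0.476% on the siControl arrays. The normalized log2 values were 5.82, 6.43 and 5.80 in siGRAMD1B and 5.88, 5.93 and 5.73 in siControl. The groups overlapped, with 2 of the siGRAMD1B values inside the siControl range. The mean was 6.02 ± 0.36 in siGRAMD1B and 5.85 ± 0.11 in siControl (SD, n = 3 each), and the probe did not pass the filter on low values. The log2 difference of 0.17 became -0.04 without siGRAMD1B replicate 3. No fold is given after subtraction of the 25th percentile, since nothing was left above it on 2 siGRAMD1B and all 3 siControl arrays. On those 5 arrays the probe did not exceed the 25th percentile, which does not show that a receptor transcript was absent. On siGRAMD1B replicate 3 it read 1.08 times the array median. Without detection p-values, the transcript could not be called present or absent on any array.

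The samples were checked on the target and on markers of other cell types. The GRAMD1B probe read 6.26, 6.23 and 6.17 in siGRAMD1B and 6.42, 6.41 and 6.57 in siControl (normalized log2). The groups did not overlap, and the difference of -0.25 ± 0.10 (SE) did not pass over all probes (limma adjusted p = 0.15). This probe lay near the floor, at 0.96 to 0.99 times the array median in siGRAMD1B and 1.07 to 1.17 times in siControl. The size of the knockdown therefore cannot be read from it. Array medians lay between 103 and 129 units. VIM (14.69 ± 0.10 in siGRAMD1B, 14.57 ± 0.11 in siControl), KRT8 (11.44 ± 0.17 and 11.10 ± 0.07), KRT18 (7.91 ± 0.21 and 8.20 ± 0.20) and the ovarian carcinoma marker PAX8 (10.14 ± 0.15 and 10.25 ± 0.03) were above the floor (SD, n = 3 each), whereas EPCAM (6.23 ± 0.19 and 6.42 ± 0.27) was close to it. The genes CDH1, KRT7, KRT19, CLDN3, CLDN4, ESRP1, CDH2, MUC16, WFDC2, FOLR1, MSLN, CD68, CDH5 and VWF are named after their values were seen. Over all genes, each by its brightest probe, 9.43% were called, 5.71% higher and 3.72% lower. A count of 0 or 1 in a short marker list is therefore not read as a result about the list. Of the 9 epithelial markers 6 were tested, and 0 rose or fell. CDH1, KRT19 and CLDN3 did not pass the filter, and CLDN4 and ESRP1 lay near the floor. KRT7 was bright (10.82 ± 0.16 in siGRAMD1B, 10.53 ± 0.24 in siControl, SD, n = 3 each, limma adjusted p = 0.19). The epithelial sums (linear scale) were 4662 to 5777 in siGRAMD1B and 4266 to 4605 in siControl. Most of each epithelial sum came from KRT8 and KRT7, which differed by 0.34 and 0.29. KRT18 and EPCAM differed by -0.29 and -0.19, and the median of the epithelial list was -0.07. In the mesenchymal list 1 of 6 genes, the N-cadherin gene CDH2, fell by 0.38 (12.31 ± 0.03 in siGRAMD1B, 12.69 ± 0.10 in siControl, SD, n = 3 each, limma adjusted p = 0.023). Of the 6 ovarian carcinoma markers 3 did not pass the filter on low values (MUC16, WFDC2 and FOLR1), and MSLN lay near the floor (6.25 ± 0.18 and 6.36 ± 0.16). In the trophoblast list 3 of 18 genes lay above the 75th percentile of all probes and 1 of 12 tested, TFAP2C, rose. The summed level of the list (linear scale of the normalized values) was 7231 to 7420 in siGRAMD1B and 5646 to 6127 in siControl. Most of that sum came from TFAP2C (12.00 ± 0.08 and 11.58 ± 0.14, SD, n = 3 each) and from KRT7, which is also on the epithelial list. CGA, which encodes the alpha chain of chorionic gonadotropin, stayed near the floor (6.29 ± 0.22 and 6.28 ± 0.13, SD, n = 3 each). In the haematopoietic list 1 of 5 genes, CD68, lay above the 75th percentile and rose by 0.37 (limma adjusted p = 0.023). Its other tested probes differed by 0.16 and 0.24 (limma adjusted p = 0.47 and 0.25). The summed level of the list was 3714 to 3929 in siGRAMD1B and 2960 to 3114 in siControl. Most of that sum came from CD68, and the list median was -0.02. PTPRC lay near the floor (6.17 ± 0.09 and 6.19 ± 0.03). In the endothelial list VWF, at a low level, rose by 0.38 (6.50 ± 0.15 in siGRAMD1B, 6.12 ± 0.07 in siControl, SD, n = 3 each, limma adjusted p = 0.033). CDH5, the bright gene of that list, differed by -0.18 (9.52 ± 0.09 and 9.71 ± 0.17, limma adjusted p = 0.38), and the list median was -0.07. The endothelial sums, with 1 of 5 genes above that percentile, were 1015 to 1114 and 1071 to 1278, and the neuronal sums, with 0 of 5, were 325 to 358 and 338 to 361, each with siGRAMD1B first. In the same order, the mesenchymal sums were 31616 to 34725 and 30686 to 34061, and the ovarian carcinoma sums 1430 to 1597 and 1592 to 1644. The part of these differences in the KISS1 difference was not tested.

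Among the genes around kisspeptin, 10 rose and 2 fell of the 86 tested members of 6 lists, at a limma adjusted p under 0.05 over all 28338 probes. Over all probes 7.09% were called, 3.89% higher and 3.21% lower. The called list members made up 14.0% of those tested, 11.6% higher and 2.33% lower. Over all 14261 genes, each by its brightest probe, 9.43% were called, 5.71% higher and 3.72% lower. The counts of single lists and of the neighbours, given below, stand beside these shares. None of them is read as a result about its list. The median log2 difference was 0.05 over the lists and 0.01 over all genes. The count that rose became 6 without siControl replicate 2 and 5 without siGRAMD1B replicate 4, and 5 with a normexp offset of 16. Over all probes the share of higher ones among those called was 54.8%, against 65.7% with the offset of 16.

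Processing of the precursor was represented by convertases, the amidating enzyme and the matrix metalloproteinases that cleave kisspeptins. Of 12 tested genes 1 rose, 0 fell and 11 did not pass (median 0.09). MMP9, a gelatinase that can cut kisspeptins and whose expression kisspeptins have been reported to lower, had log2 values of 8.44, 8.37 and 8.32 in siGRAMD1B and 7.77, 7.81 and 7.78 in siControl. The groups did not overlap, and MMP9 rose by 0.59 ± 0.10 (SE, limma adjusted p = 0.00079). It passed under all 13 alternatives. FURIN, the convertase that cuts at basic residues, differed by 0.07 (6.72 ± 0.12 in siGRAMD1B, 6.65 ± 0.17 in siControl, limma adjusted p = 0.80). PAM, which amidates the C-terminus of peptide hormones, differed by 0.23 (11.34 ± 0.18 and 11.12 ± 0.36, limma adjusted p = 0.42), and the membrane protease gene MMP14 by 0.21 (8.13 ± 0.11 and 7.92 ± 0.14, limma adjusted p = 0.30; SD, n = 3 throughout). MMP2, the other gelatinase gene, did not pass the filter on low values (6.04 ± 0.17 in siGRAMD1B, 5.94 ± 0.11 in siControl, SD, n = 3 each).

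Most receptor coupling genes did not pass. Of 22 tested, 3 rose, 1 fell and 18 did not pass (median 0.04), where 5.71% of all genes rose and 3.72% fell. GNA11, the G11 alpha subunit through which KISS1R can signal, had 9.66, 9.70 and 9.45 in siGRAMD1B and 9.07, 8.98 and 9.05 in siControl on the log2 scale. It rose by 0.56 ± 0.10 (SE, limma adjusted p = 0.0019) with no overlap between groups, while a dimmer GNA11 probe with a mean of 6.42 differed by -0.14 (limma adjusted p = 0.50). GNAQ, the Gq alpha subunit, differed by 0.14 (8.12 ± 0.07 in siGRAMD1B, 7.99 ± 0.16 in siControl, SD, n = 3 each, limma adjusted p = 0.54). DGKA, a diacylglycerol kinase that removes the second messenger made by phospholipase C, rose by 0.47 ± 0.10 (SE, limma adjusted p = 0.0053) at one probe and by 0.42 at another (limma adjusted p = 0.014), and 1 further tested probe with a mean of 6.19 differed by 0.11 (limma adjusted p = 0.65). The DGKA call was lost under 1 of 13 alternatives, the replicate number as a block (limma adjusted p = 0.088). That block rests on replicates 2 and 4 alone. The phospholipase C gene PLCB2 rose by 0.33 (7.15 ± 0.04 in siGRAMD1B, 6.82 ± 0.04 in siControl, SD, n = 3 each, limma adjusted p = 0.043) and the protein kinase C gene PRKCE fell by 0.35 (8.15 ± 0.10 and 8.50 ± 0.06, limma adjusted p = 0.038). PLCB2 lost its call under 11 of 13 alternatives and PRKCE under 9 of 13. PLCB3, a more widely expressed phospholipase C, differed by 0.16 (6.99 ± 0.02 in siGRAMD1B, 6.83 ± 0.07 in siControl, SD, n = 3 each, limma adjusted p = 0.39).

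**Figure D3:**
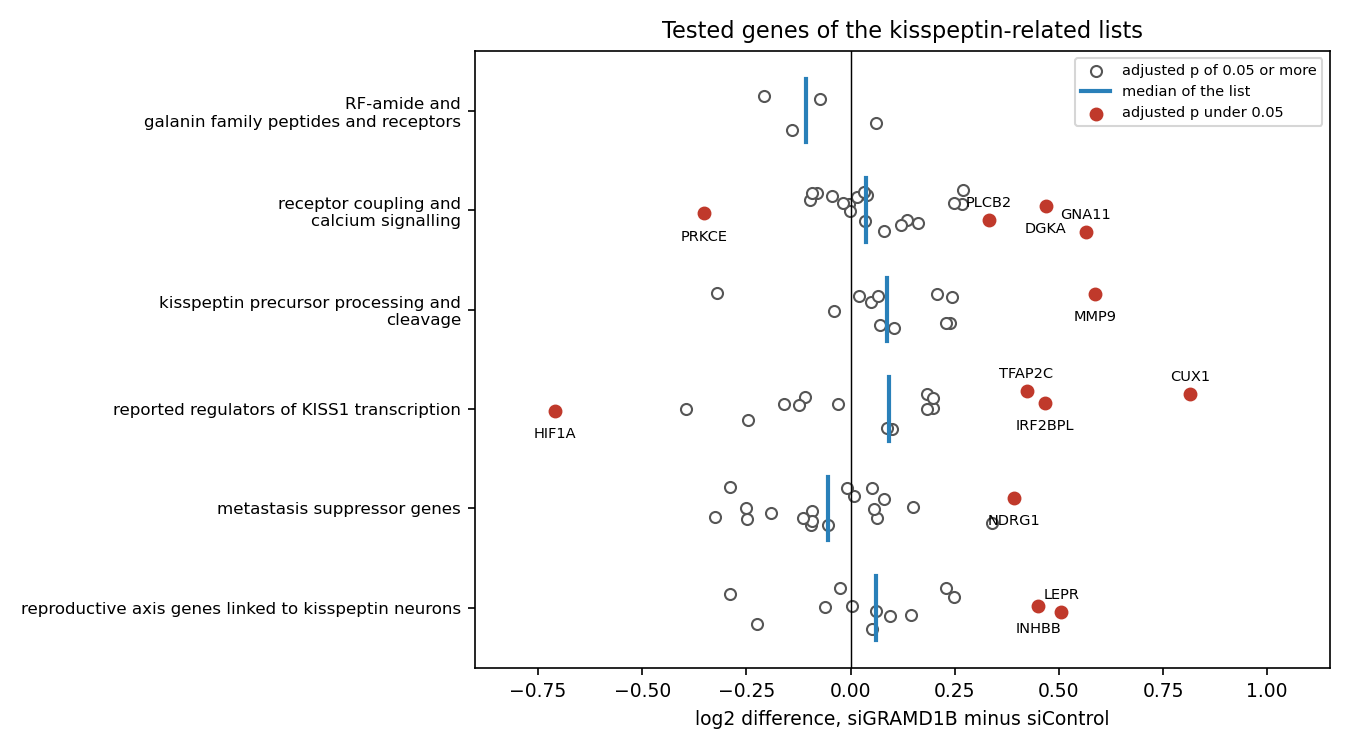
Log2 difference (siGRAMD1B minus siControl) of each tested gene in the 6 lists, with filled points for a limma adjusted p under 0.05, open points for the rest and a bar at the median of each list (vertical scatter within a list has no meaning). CUX1 at 0.81 and HIF1A at -0.71 lay farthest from 0, and most points were open.

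Factors reported to act on KISS1 transcription lay on both sides. Of 16 tested, 3 rose, 1 fell and 12 did not pass (median 0.09). CUX1, a homeodomain factor reported to act on KISS1 in neuroendocrine cells, had 9.01, 9.14 and 8.87 in siGRAMD1B and 8.27, 7.95 and 8.35 in siControl. It rose by 0.81 ± 0.12 (SE, limma adjusted p = 0.00022), and its other tested probe differed by 0.22 (limma adjusted p = 0.29). IRF2BPL, known as a regulator of puberty genes in the hypothalamus, rose by 0.47 ± 0.11 (SE, 9.68 ± 0.08 in siGRAMD1B, 9.21 ± 0.19 in siControl, SD, n = 3 each, limma adjusted p = 0.013) and lost its call under 5 of 13 alternatives. The AP-2 gamma gene TFAP2C rose by 0.42 ± 0.10 (SE, 12.00 ± 0.08 and 11.58 ± 0.14, SD, n = 3 each, limma adjusted p = 0.018), a call lost under 7 of 13 alternatives, and its other probe differed by 0.26 (limma adjusted p = 0.12). HIF1A, the oxygen-sensitive subunit of hypoxia-inducible factor, fell by 0.71 ± 0.12 (SE, limma adjusted p = 0.0012). Its values were 9.59, 9.79 and 9.44 in siGRAMD1B and 10.33, 10.10 and 10.52 in siControl, and its other probes fell by 0.50 (limma adjusted p = 0.0100) and 0.42 (limma adjusted p = 0.019). All 3 HIF1A probes were thus lower with siGRAMD1B. SP1, which binds GC boxes such as the one printed above, differed by -0.03 (8.29 ± 0.01 and 8.32 ± 0.13, SD, n = 3 each, limma adjusted p = 0.92). The AP-2 alpha gene TFAP2A differed by -0.16 (8.24 ± 0.07 and 8.40 ± 0.11, limma adjusted p = 0.42). MED23 and TXNIP, described upstream of KISS1 in melanoma cells, differed by 0.10 (8.51 ± 0.23 and 8.41 ± 0.24, limma adjusted p = 0.76) and 0.20 (10.37 ± 0.09 and 10.18 ± 0.13, limma adjusted p = 0.31), with siGRAMD1B first and SD over n = 3 in each pair.

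KISS1 is grouped with other suppressors of metastasis, and 1 of the 19 tested rose, 0 fell and 18 did not pass (median -0.05). NDRG1, a stress-responsive gene of that group, rose by 0.39 ± 0.11 (SE, 9.94 ± 0.11 in siGRAMD1B, 9.55 ± 0.16 in siControl, SD, n = 3 each, limma adjusted p = 0.035). Its call was lost under 5 of 13 alternatives, among them the omission of siControl replicate 2 (limma adjusted p = 0.14). NME1, a nucleoside diphosphate kinase, differed by 0.01 at its brightest probe (13.48 ± 0.07 and 13.47 ± 0.03, SD, n = 3 each, limma adjusted p = 0.98). A dimmer NME1 probe was lower by 0.35 on the log2 scale (log2 difference -0.35, limma adjusted p = 0.048) and another stood at -0.24 (limma adjusted p = 0.29), so the NME1 probes disagreed. The tetraspanin gene CD82 differed by -0.09 (9.29 ± 0.21 and 9.38 ± 0.15, limma adjusted p = 0.74) and BRMS1 by -0.09 (8.25 ± 0.13 and 8.35 ± 0.13, limma adjusted p = 0.71), each with siGRAMD1B first and SD over n = 3.

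Of 13 tested genes from the reproductive axis, 2 rose, 0 fell and 11 did not pass (median 0.06). The leptin receptor gene LEPR had 7.74, 7.97 and 7.73 in siGRAMD1B and 7.27, 7.27 and 7.38 in siControl, and rose by 0.51 ± 0.10 (SE, limma adjusted p = 0.0049). Its call was lost under 1 of 13 alternatives, the replicate number as a block (limma adjusted p = 0.13), which rests on replicates 2 and 4 alone. The 2 other LEPR probes that passed the filter, both near the floor, with means of 6.18 and 6.24, differed by 0.07 and 0.02 (limma adjusted p = 0.83 and 0.95). INHBB, which encodes a subunit of activins and inhibins, rose by 0.45 ± 0.11 (SE, 7.05 ± 0.13 in siGRAMD1B, 6.59 ± 0.12 in siControl, SD, n = 3 each, limma adjusted p = 0.013). Its call was lost under 4 of 13 alternatives.

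The relatives of kisspeptin and its receptor were mostly at the floor. Of the 13 genes for RF-amide peptides, galanin peptides and their receptors, 9 did not pass the filter, and of the 4 tested 0 passed (median -0.11). The 4 differences lay between -0.21 and 0.06. The exception in brightness was QRFPR, a receptor of RF-amide peptides, named here after its values were seen. It read 11.40, 11.28 and 11.15 in siGRAMD1B and 11.69, 11.76 and 11.01 in siControl, so the groups overlapped through siControl replicate 4. The difference was -0.21 ± 0.15 (SE, limma adjusted p = 0.51), and without siControl replicate 4 it was -0.45 (limma adjusted p = 0.019). A further QRFPR probe lay at the floor, with a mean of 6.15.

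Most of the genes beside KISS1 on chromosome 1 did not pass the test. Of the 5 nearest coding genes with a tested probe on each side, 1 of 10 rose, 0 fell and 9 did not pass (median 0.08). Over all genes 5.71% rose and 3.72% fell. ETNK2, an ethanolamine kinase gene and the nearest tested gene on the side of lower coordinates, had 7.31, 7.15 and 7.21 in siGRAMD1B and 6.70, 6.64 and 6.64 in siControl. The groups did not overlap, and ETNK2 rose by 0.56 ± 0.10 (SE, limma adjusted p = 0.0013), a call kept under all 13 alternatives. GOLT1A, a Golgi transport gene and the nearest on the other side, was close to the floor and differed by 0.28 ± 0.11 (SE, 6.55 ± 0.19 in siGRAMD1B, 6.27 ± 0.12 in siControl, SD, n = 3 each, limma adjusted p = 0.17). Without siControl replicate 4, 2 of the neighbours rose in place of 1.

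Of the 10 neighbours of KISS1R on chromosome 19, 0 rose and 0 fell (limma), and 0 passed in any of the 13 alternatives, with a median of 0.08. Their differences ran from -0.07 to 0.27. R3HDM4 and the DNA-binding protein gene ARID3A, next to KISS1R on either side, differed by 0.05 (10.41 ± 0.04 in siGRAMD1B, 10.36 ± 0.04 in siControl, limma adjusted p = 0.83) and 0.09 (8.82 ± 0.06 and 8.73 ± 0.11, limma adjusted p = 0.72; SD, n = 3 in each group).

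**Figure D4:**
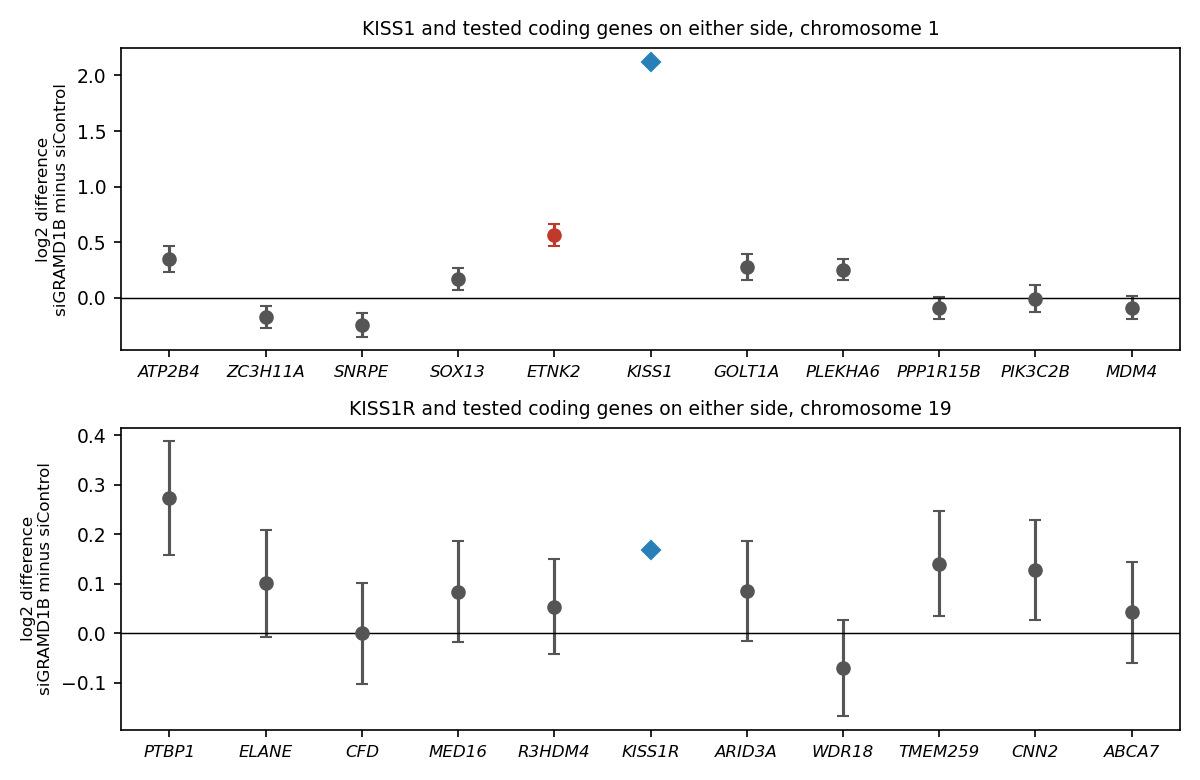
Log2 difference (siGRAMD1B minus siControl) of KISS1 (top) and KISS1R (bottom), both as diamonds with no error shown, and of the 5 nearest tested coding genes on each side, in chromosomal order, with bars of 1 SE of the limma fit (the vertical scales of the panels differ). KISS1 at 2.13 stood above its neighbours, which the choice of KISS1 by this difference favours. ETNK2 at 0.56 was the one neighbour that passed the test.

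Likeness to KISS1 was described by Pearson's r over the 6 arrays, for 19607 tested probes with 1 gene symbol. The measure is dominated by the difference between the groups that picked KISS1, and all values share the same 6 arrays, so it carries no test. The 8 genes with the highest r are named here, with r from 0.995 to 0.998. They were MAGED1, TNC, CDK5RAP2, ZNF462, SH3GL3, FAM20C, ZFP90 and PODXL. Like KISS1, each of the 8 was lowest within siControl in replicate 2. After the mean of each group was subtracted, their r with KISS1 lay between 0.80 and 0.94. The genes were picked by r over these same arrays, which favours a matching pattern within the groups. Both observations therefore follow largely from the choice and carry no test. TNC, which encodes the matrix glycoprotein tenascin C, had 11.70, 11.69 and 11.74 in siGRAMD1B and 11.02, 10.91 and 11.05 in siControl, a log2 difference of 0.71. PODXL, which encodes the sialomucin podocalyxin, had 10.50, 10.40 and 10.37 in siGRAMD1B and 9.24, 8.94 and 9.18 in siControl, a log2 difference of 1.31. FAM20C, a kinase gene of the secretory pathway, differed by 0.94 and MAGED1 by 0.54. The 4 with the lowest r, from -0.997 to -0.994, were VTRNA1-1, RRAS2, RACGAP1 and DUSP19. RACGAP1, a component of the central spindle, had 8.83, 8.91 and 8.63 in siGRAMD1B and 9.99, 10.26 and 10.04 in siControl, a log2 difference of -1.31.

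**Figure D5:**
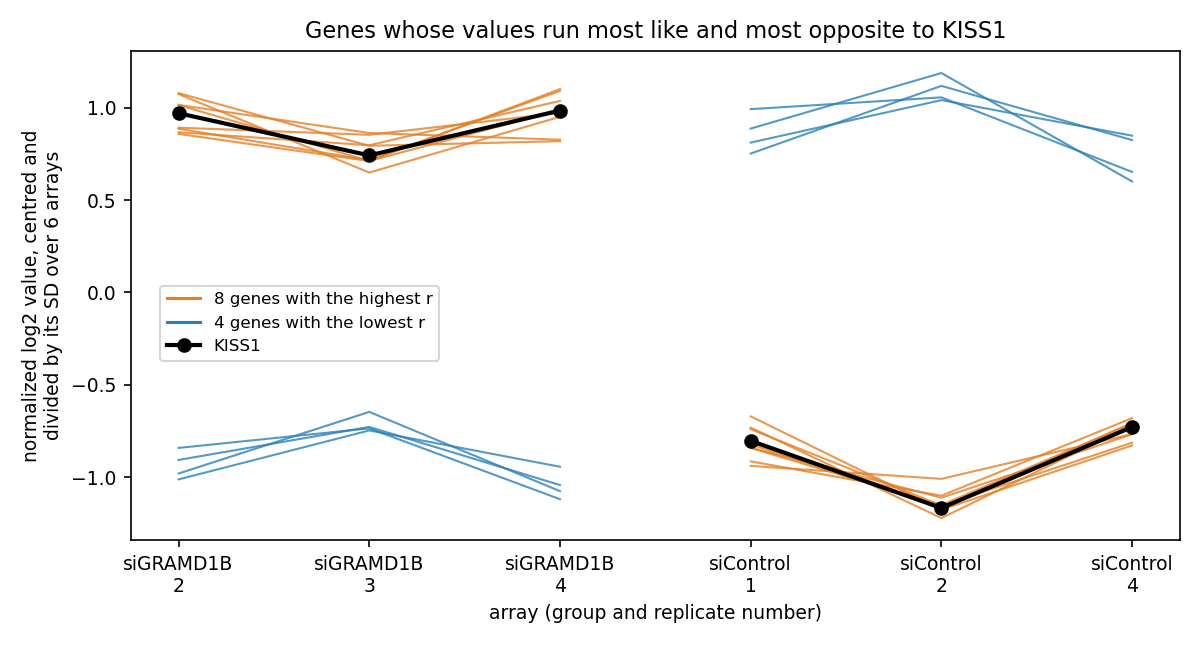
Normalized log2 values of KISS1 (black), the 8 genes with the highest r (orange) and the 4 with the lowest r (blue) on the 6 arrays, each centred on its mean and divided by its SD over the arrays (lines join arrays of a group and have no order). The orange lines are lowest in siControl replicate 2 and the blue lines are highest there, a pattern that the choice by r favours.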

How the data were processed

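Total RNA of HeyA8-MDR cells was hybridised to Illumina bead arrays, 3 per group. The first deposited table holds intensity values per probe on a linear scale, from BeadStudio according to the labels (per the submitters' processing notes), with no background subtraction visible in the values. The second deposited table holds log2 values that the authors normalized between arrays by a method not given in the sources used here. In the first table the header is offset from the values by 1 field, and each column was matched by comparing both tables (Spearman's rho 1.00 for the same array, at most 0.854 otherwise).

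Intensities were corrected (normexp, offset 50), quantile-normalized and put on the log2 scale with limma 3.58.1 in R 4.3.3. Probes with a mean above the 40th percentile (6.158) were tested, 28338 of 47231, with lmFit and eBayes, 2-sided, and Benjamini-Hochberg adjustment over all of them (threshold 0.05). The script was tested on simulated data. Genes came from the platform annotation (30113 probes with 1 symbol, 8 with several, 17110 with none here), and 30074 were found in RefSeq by Entrez identifier, with 0 symbols changed. The brightest tested probe stood for a gene. Genes named were KISS1, KISS1R and GRAMD1B, up to 8 called members of each list and of the neighbours by smallest p, members picked by role (GNAQ, GNA11, PLCB3, FURIN, PAM, MMP2, MMP9, MMP14, TXNIP, MED23, SP1, TFAP2A, NME1, CD82 and BRMS1), the nearest tested neighbours, defining markers, and the 8 highest and 4 lowest by Pearson's r. ARRB2 was not analysed here. Array number limits the precision. Alternatives were the authors' values, median centring, no background correction, no filter, an offset of 16, the replicate number as a block, trend and robust variances, and leaving out each array. In the block, siControl replicate 1 and siGRAMD1B replicate 3 have no same-numbered partner, so the difference rests on replicates 2 and 4. The members, the lists and these rules were chosen with earlier results of these data known.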

Additional observations from a re-analysis of the deposited data

How the results depend on the processing

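The KISS1 difference kept its direction under its 11 alternatives, which the choice of KISS1 by this difference largely fixed. It moved to 1.72 with the authors' normalized values, 1.78 with no background correction and 2.58 with an offset of 16. Leaving out 1 array gave 1.97 to 2.20. Its ratio after background removal was 7.25 to 12.7. The KISS1R difference was -0.04 to 0.33. Of all probes, 1101 rose and 909 fell, against 603 and 419 with median centring, 449 and 234 with the offset of 16, and 578 and 409 with the replicate number as a block. Leaving out 1 array gave 667 to 1151 higher and 450 to 1036 lower. Both counts were far lower without siGRAMD1B replicate 2 (686 and 489), siGRAMD1B replicate 3 (704 and 530), siGRAMD1B replicate 4 (667 and 450) and siControl replicate 1 (733 and 477). The list members that rose, 10 in the report, numbered 6 with median centring, 5 with the offset of 16, 6 with the block and 5 to 10 without 1 array. Those that fell, 2 in the report, numbered 1 under each of these settings and with no filter, and 1 to 2 without 1 array, with 1 left without siControl replicate 1, siGRAMD1B replicate 2 or siGRAMD1B replicate 4. Of the KISS1 and KISS1R neighbours, 1 to 2 rose without 1 array. The 27 single genes gave 351 results: 298 kept direction and call, 43 lost the call, 1 gained it (QRFPR) and 9 changed sign, all of 4 genes whose brightest probe passed in no setting. With the block FURIN stood at -0.067, MED23 at -0.12 and NME1 at -0.021, and with median centring NME1 stood at -0.069. Without 1 array FURIN ran from -0.017 to 0.15, MED23 from -0.032 to 0.23, NME1 from -0.026 to 0.044 and SP1 from -0.084 to 0.039. Beyond settings with fewer arrays, among them the block, which rests on replicates 2 and 4 alone, the cause was not tested.

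The groups share the numbers 2 and 4, and same-numbered arrays did not deviate together (r = 0.02 and -0.15). Arrays with different numbers gave r from -0.18 to 0.19, so 2 pairs cannot decide whether the numbers pair the arrays. With the block, which compares only the arrays numbered 2 and 4, the KISS1 difference was 2.28 and that of KISS1R -0.02. KISS1R was too close to background for a ratio.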
